A study of Homo sapiens with 84 samples.

Results

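The combination of tazemetostat and ipatasertib was compared between 2 classes of triple-negative breast cancer cell lines, basal epithelial and mesenchymal, with ATAC-seq, an assay that cuts and tags open chromatin with the Tn5 transposase. The basal epithelial lines were MDA-MB-468, BT-20, HCC1143, HCC1937 and SUM-149PT, and the mesenchymal lines were MDA-MB-231, SUM-159PT and BT-549. HCC1395 was left out of both classes. The labels name the lines but not their class, which is the division in common use for these established lines. The comparison used 48 of 78 libraries with counts: 15 given the combination (COMBO) and 15 given DMSO in the basal epithelial lines, and 9 given COMBO and 9 given DMSO in the mesenchymal lines. COMBO cells received 5 uM tazemetostat and 5 uM ipatasertib. DMSO cells received vehicle, and all cells were collected after 24 hours in medium with 2% FBS. Tazemetostat was started on day -5 and ipatasertib on day 0. The labels describe this schedule for MDA-MB-468, and it was taken to hold for the other lines. Each class is represented by a handful of established lines, and each line stands for 1 tumour. Each line and treatment enters as 1 sum over its 3 replicates, since the 48 pairs of replicates of the 8 lines differed by less than sampling noise (ratio of observed to sampling variance 0.799 to 0.959) and count as 1 sample. No label says whether the replicates came from separate cultures, so p-values rest on the spread between lines. In bulk chromatin, fewer cells with an open site and less signal per cell cannot be told apart.

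Tazemetostat inhibits EZH2, the enzyme of Polycomb repressive complex PRC2 that methylates histone H3 at silenced genes, and ipatasertib inhibits the AKT kinases downstream of PI3K. Epithelial identity rests on factors such as GRHL2, OVOL1 and OVOL2, which keep junction and desmosome genes active, while ZEB1 and related factors repress them in mesenchymal cells through E-box sequences. Genes shut in the mesenchymal state are known in several cell types to carry PRC2 marks. The question of this comparison is whether chromatin opens or closes at different genes in the 2 classes under the same drugs.

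The class of the lines was checked against defining genes in DMSO. A gene's value is the sum of counts in peaks within 10 kb of its transcription start, scaled to library size with TMM (CPM), a correction for composition between libraries. GRHL2, a factor of epithelial identity, stood at 54.8 to 84.3 CPM in the basal epithelial lines and 2.84 to 14.2 CPM in the mesenchymal lines. CDH1, E-cadherin, stood at 47.3 to 122 CPM in the basal epithelial lines and 14.9 to 25.1 CPM in the mesenchymal lines. VIM, vimentin, stood at 38.4 to 56.5 CPM in the basal epithelial lines and 70.8 to 94.3 CPM in the mesenchymal lines. These 3 genes separated the classes without overlap, as did ESRP1, an epithelial splicing factor, at 12.7 to 24.1 CPM against 3.61 to 11.8 CPM. EPCAM, an epithelial adhesion molecule, did not follow the class: it stood at 2.89 to 14.6 CPM in the basal epithelial lines and 1.79 to 15.9 CPM in the mesenchymal lines. CDH2, N-cadherin, overlapped too, at 3.17 to 48.7 CPM in the basal epithelial lines and 2.69 to 50.9 CPM in the mesenchymal lines. ZEB1 was at 17.3 to 27.9 CPM in the basal epithelial lines and 26.9 to 41.6 CPM in the mesenchymal lines. In DMSO 54 of 23720 genes were more open in the basal epithelial lines (0.228%) and 4 in the mesenchymal lines (0.0169%), at an adjusted p under 0.05 in edgeR's quasi-likelihood test with Benjamini-Hochberg adjustment. Both together made 58 genes, and 1 to 58 in fits that left out 1 line (1 without HCC1937, 2 without BT-549, 15 without MDA-MB-468 and 16 without BT-20).

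SLPI, which encodes a secreted inhibitor of leukocyte proteases made by epithelia, opened in the mesenchymal lines, and its response differed between the classes. Line values follow the order MDA-MB-468, BT-20, HCC1143, HCC1937 and SUM-149PT, and MDA-MB-231, SUM-159PT and BT-549. In the basal epithelial lines SLPI had 35.0, 36.9, 16.7, 37.1 and 29.6 CPM with COMBO, against 42.5, 42.4, 17.4, 44.3 and 31.8 CPM with DMSO. It had 5.75, 18.9 and 5.87 CPM with COMBO in the mesenchymal lines, against 2.41, 7.36 and 2.81 CPM with DMSO. All 5 basal epithelial lines were slightly lower with COMBO and all 3 mesenchymal lines were higher. With COMBO the level in SUM-159PT passed that of HCC1143, and MDA-MB-231 and BT-549 stayed below every basal epithelial line. The fitted response, as log2 fold of COMBO over DMSO, was -0.18 ± 0.046 in the basal epithelial lines (± SE, n = 5 lines; adjusted p = 0.0720, edgeR) and 1.24 ± 0.073 in the mesenchymal lines (n = 3 lines; adjusted p = 0.000460, edgeR). Here and below, both responses come from 1 fit over the 8 lines and share its spread. The SE and p of a class thus do not measure the spread of its own lines alone. The difference of the responses, basal epithelial minus mesenchymal, was -1.42 ± 0.086 (adjusted p = 0.000589, edgeR with a term for class by treatment and the line as block). It passed in each of the 8 fits that left out 1 line, from -1.49 to -1.34 (adjusted p from 0.00162 to 0.00652). SLPI was also more open in DMSO in the basal epithelial lines, by 3.09 on the log2 scale (adjusted p = 0.0461, edgeR), and the same DMSO sums enter both differences. In HCC1395 its fold was 0.36. With that line counted as mesenchymal the difference was -1.15 and did not pass (adjusted p = 0.522, edgeR).

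**Figure D1:**
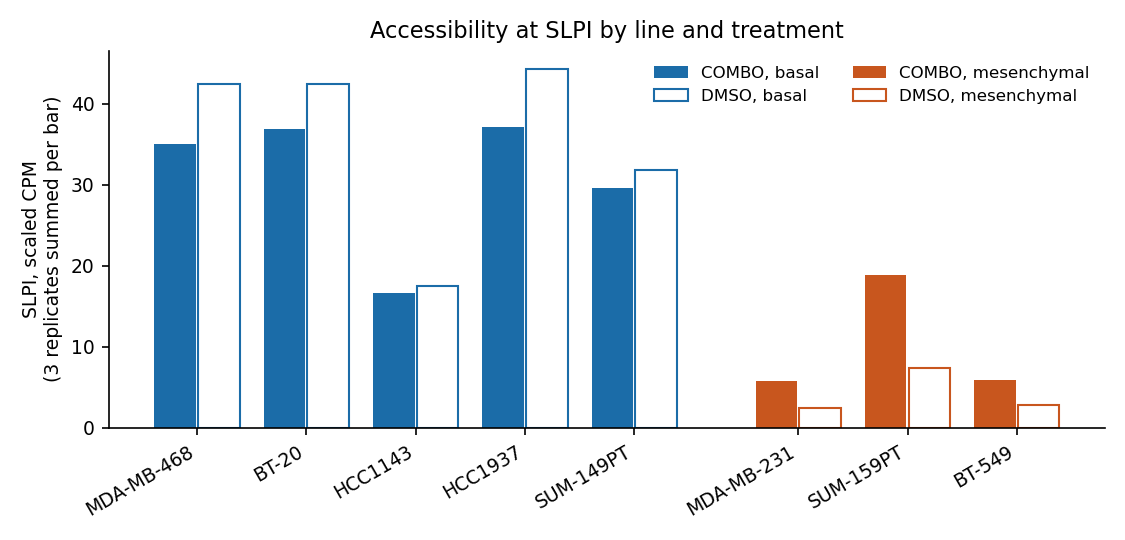
Accessibility at SLPI (vertical axis, scaled CPM; each bar is the sum of 3 replicates) in the 5 basal epithelial lines (blue) and 3 mesenchymal lines (orange), with COMBO as filled and DMSO as open bars. With COMBO the mesenchymal lines reached 5.75 to 18.9 CPM, against 2.41 to 7.36 CPM with DMSO.

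SLPI was the only gene of 24094 tested whose response differed between the classes at an adjusted p under 0.05 in edgeR (0.00415% of genes). At an unadjusted p under 0.05 in the same test, 618 genes had the higher response in basal epithelial lines (2.56%) and 1054 in mesenchymal lines (4.37%). That balance turned with total counts as scaling (935 higher in basal epithelial and 777 in mesenchymal lines) and without MDA-MB-468 (1534 and 1317). DESeq2 called 2 genes with the higher response in basal epithelial lines and 77 with the higher response in mesenchymal lines (0.391% of the 19713 genes to which it gave an adjusted p). The folds of the 5 basal epithelial lines lay wholly above those of the 3 mesenchymal lines at 634 genes (2.63%). The mesenchymal folds lay wholly above at 682 genes (2.83%). Where no gene differs, the order of 5 and 3 lines alone would separate a share of 0.0357 of genes, counting both directions. Many genes in each of these sets may thus be separated by line order alone. Without MDA-MB-231 the count of called genes was 6, with SLPI and PKP2, a desmosomal plaque protein named here after its values were seen, among them. It was 2 without MDA-MB-468, SUM-159PT or BT-549.

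Next by p, among protein-coding genes whose line folds lay wholly higher in the mesenchymal lines, came SPO11, DTX4, MDFI, PERP and SLC7A8, and all 5 rose there. SPO11, known as the endonuclease that starts meiotic recombination, had 25.9, 34.0, 19.3, 23.9 and 32.8 CPM with COMBO in the basal epithelial lines, against 24.4, 32.5, 16.4, 21.8 and 27.6 CPM with DMSO. It had 7.18, 16.1 and 9.51 CPM with COMBO in the mesenchymal lines, against 4.16, 8.01 and 5.57 CPM with DMSO. Every line was higher with COMBO, the 3 mesenchymal lines by more on the log2 scale. Its response was 0.15 ± 0.047 in the basal epithelial lines and rose by 0.86 ± 0.068 in the mesenchymal lines (adjusted p = 0.00309, edgeR, and past the threshold in 8 of 8 fits without 1 line), and the difference of -0.71 ± 0.082 did not pass (adjusted p = 0.1003, edgeR).

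SLC7A8, an amino acid transporter, had 5.73, 6.07, 17.9, 9.73 and 8.88 CPM with COMBO in the basal epithelial lines, against 5.91, 5.03, 15.4, 8.68 and 8.29 CPM with DMSO. It had 9.34, 10 and 12.5 CPM with COMBO in the mesenchymal lines, against 4.85, 4.40 and 4.30 CPM with DMSO. The mesenchymal lines, which were the lower class with DMSO, stood inside the range of the basal epithelial lines with COMBO. The response was 0.14 ± 0.099 in the basal epithelial lines, it rose by 1.23 ± 0.13 in the mesenchymal lines (adjusted p = 0.0175, edgeR), and the difference was -1.08 ± 0.16 (adjusted p = 0.305, edgeR).

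DTX4, a ubiquitin ligase of the Deltex family tied to Notch signalling, had 74.5, 42.3, 44.0, 62.1 and 74.8 CPM with COMBO in the basal epithelial lines, against 82.9, 45.0, 43.7, 62.9 and 73.5 CPM with DMSO. It had 36.7, 47.7 and 33.6 CPM with COMBO in the mesenchymal lines, against 27.4, 35.0 and 26.2 CPM with DMSO. Its folds were -0.15 to 0.02 in the basal epithelial lines and 0.42, 0.44 and 0.36 in the mesenchymal lines, which leaves a clear gap between the classes. MDFI, an inhibitor of MyoD family factors, had folds of 0.06, 0.19, -0.09, -0.02 and 0.01 in the basal epithelial lines and 0.49, 0.55 and 0.53 in the mesenchymal lines. PERP, a membrane protein of desmosomes and a target of p53 and p63, had folds of -0.34, -0.05, -0.19, -0.24 and -0.15 in the basal epithelial lines and 0.21, 0.27 and 0.38 in the mesenchymal lines. PERP thus lay below 0 in all 5 and above 0 in all 3 lines. All 3 genes rose in the mesenchymal lines (0.41 ± 0.046, 0.52 ± 0.052 and 0.29 ± 0.059; adjusted p = 0.0175, 0.0149 and 0.0439, edgeR). Their differences of -0.46, -0.50 and -0.49 did not pass (adjusted p = 0.14, 0.149 and 0.305). Without BT-549 the rises of DTX4, MDFI and SLC7A8 were not called (highest adjusted p 0.0645), nor were those of DTX4 and SLC7A8 without SUM-159PT. The rise of PERP passed in 1 of the 8 fits, the one without MDA-MB-468.

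The promoters of some of these genes are printed because their line folds separated the classes and each holds a match to a motif whose share differed between the sets of genes. Only matches to 1 motif are in capitals in each, and other motifs are present. SPO11 also holds the sequence of the factor NRF1, and DSC2 and PERP also hold the sequence CCGCCC. The promoters were picked for the match in capitals and are no test of it. Each run is the 250 bases before the transcription start in RefSeq (GRCh38.p14), 5′ to 3′ on the gene's strand. The first pair, SPO11 on chr20:57329553-57329802 (plus strand) and DSC2 on chr18:31102422-31102671 (minus strand), has in capitals the E-box CACCTG, read on either strand, that ZEB and SNAI factors recognise.
SPO11: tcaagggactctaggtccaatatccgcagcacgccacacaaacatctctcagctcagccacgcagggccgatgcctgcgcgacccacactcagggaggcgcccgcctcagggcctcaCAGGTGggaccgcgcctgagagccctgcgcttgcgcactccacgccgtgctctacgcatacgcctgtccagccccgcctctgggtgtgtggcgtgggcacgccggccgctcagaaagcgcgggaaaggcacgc
DSC2: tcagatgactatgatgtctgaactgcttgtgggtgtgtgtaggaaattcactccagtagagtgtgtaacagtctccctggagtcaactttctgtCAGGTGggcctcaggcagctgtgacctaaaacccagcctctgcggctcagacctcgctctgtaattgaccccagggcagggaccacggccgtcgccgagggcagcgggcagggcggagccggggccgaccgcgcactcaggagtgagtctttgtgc
In PERP on chr6:138107420-138107669 (minus strand) and MDFI on chr6:41636768-41637017 (plus strand) the capitals mark TGANTCA, the sequence of AP-1 factors.
PERP: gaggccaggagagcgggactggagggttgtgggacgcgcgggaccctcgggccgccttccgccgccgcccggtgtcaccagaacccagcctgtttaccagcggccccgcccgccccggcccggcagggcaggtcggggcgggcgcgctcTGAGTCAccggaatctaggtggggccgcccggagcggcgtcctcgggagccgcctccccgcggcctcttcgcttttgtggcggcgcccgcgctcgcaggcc
MDFI: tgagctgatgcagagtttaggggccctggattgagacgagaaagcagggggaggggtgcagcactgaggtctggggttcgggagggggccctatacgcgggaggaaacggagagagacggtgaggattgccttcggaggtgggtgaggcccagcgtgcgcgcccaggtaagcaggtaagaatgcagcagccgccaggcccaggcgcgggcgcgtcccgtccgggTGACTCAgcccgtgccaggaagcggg
In ENPP1 on chr6:131807770-131808019 (plus strand) the capitals mark CCGCCC, the GC box of SP and KLF factors, with 6 matches of which 4 overlap one another.
ENPP1: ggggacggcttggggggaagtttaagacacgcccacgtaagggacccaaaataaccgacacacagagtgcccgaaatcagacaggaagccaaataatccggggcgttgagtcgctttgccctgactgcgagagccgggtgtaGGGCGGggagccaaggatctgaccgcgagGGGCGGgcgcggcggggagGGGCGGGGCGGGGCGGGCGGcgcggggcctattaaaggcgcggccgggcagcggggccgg

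A promoter sequence was found for 16873 of the 24094 genes, 455 of them with the mesenchymal folds wholly above and 486 with the basal epithelial folds wholly above. Motifs were searched on both strands and independently, so matches may overlap. GC boxes (CCGCCC) were in 65.2% of the promoters with basal epithelial folds above, in 40.0% of those with mesenchymal folds above and in 52.2% of all. The ETS sequence CCGGAAG was in 19.1%, 3.52% and 10.7%, and the NRF1 sequence in 11.1%, 1.54% and 6.96%, in the same order of sets. The E-box CACCTG ran the other way, in 11.3% of promoters with basal epithelial folds above, 23.3% with mesenchymal folds above and 17.0% of all, as did AP-1 (TGANTCA) with 3.70%, 8.13% and 5.80%. Base composition moved with these shares: the median GC content was 65.2%, 56.8% and 61.2%, and the median number of CpG per promoter 21, 7 and 16. So did the level of the genes, with a median log2 CPM of 4.41 where basal epithelial folds lay above, 2.99 where mesenchymal folds lay above and 3.58 over all genes. The part of composition and level in the motif shares was not tested, and both sets may hold many genes separated by line order alone. Of 14 promoters found for epithelial junction genes, 6 held the E-box, 1 the AP-1 sequence and 13 the GC box.

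Of the genes whose line folds lay wholly higher in the basal epithelial lines, none passed the test of the difference in edgeR. ENPP1, an ectoenzyme that splits extracellular ATP and cyclic GMP-AMP, had 17.4, 13.2, 13.8, 10.9 and 15.2 CPM with COMBO in the basal epithelial lines, against 11.3, 9.93, 10.9, 6.76 and 10.3 CPM with DMSO. It had 17.6, 20.6 and 17.99 CPM with COMBO in the mesenchymal lines, against 18.8, 20.5 and 18.6 CPM with DMSO. All 5 basal epithelial lines moved toward the level that the mesenchymal lines held under both treatments. ENPP1 rose by 0.52 ± 0.061 in the basal epithelial lines (adjusted p = 0.0233, edgeR), its response was -0.04 ± 0.077 in the mesenchymal lines, and the difference of 0.57 ± 0.098 did not pass (adjusted p = 0.343, edgeR).

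TMEFF1, a membrane protein with follistatin-like domains, showed nearly equal folds across the basal epithelial lines. They were 0.29, 0.27, 0.32, 0.35 and 0.31 there, against 0.08, 0.01 and 0.02 in the mesenchymal lines. SLC5A10, a sodium-coupled sugar transporter, had 0.29, 0.17, 0.39, 0.33 and 0.31 in the basal epithelial lines and -0.05, -0.29 and -0.01 in the mesenchymal lines. SNAP25, a SNARE protein of vesicle fusion, had 0.45, 0.24, 0.53, 0.44 and 0.33 in the basal epithelial lines and 0.04, 0.02 and -0.11 in the mesenchymal lines. These 3 rose in the basal epithelial lines (0.31 ± 0.036, 0.30 ± 0.049 and 0.40 ± 0.056; adjusted p = 0.0233, 0.0463 and 0.0442, edgeR). The rises rested on the full set of lines: with ENPP1 included, they passed in 1 to 3 of 8 fits without 1 line. PAG1, an adaptor that recruits the kinase CSK, had folds of 0.12 to 0.43 in the basal epithelial lines and -0.19 to -0.02 in the mesenchymal lines. GEM, a small GTP-binding protein that dampens calcium channels, fell in the mesenchymal lines (-0.32 ± 0.063; adjusted p = 0.0415, edgeR), where its folds were -0.33, -0.33 and -0.30, against -0.13 to 0.25 in the basal epithelial lines. That fall passed in 2 of the 8 fits. No difference between the classes passed for TMEFF1, SLC5A10, SNAP25, PAG1 or GEM (adjusted p from 0.367 to 0.432, edgeR). In DESeq2 the 2 genes called with the higher response in basal epithelial lines were ENPP1 and GEM (adjusted p = 0.00618 and 0.00308).

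**Figure D2:**
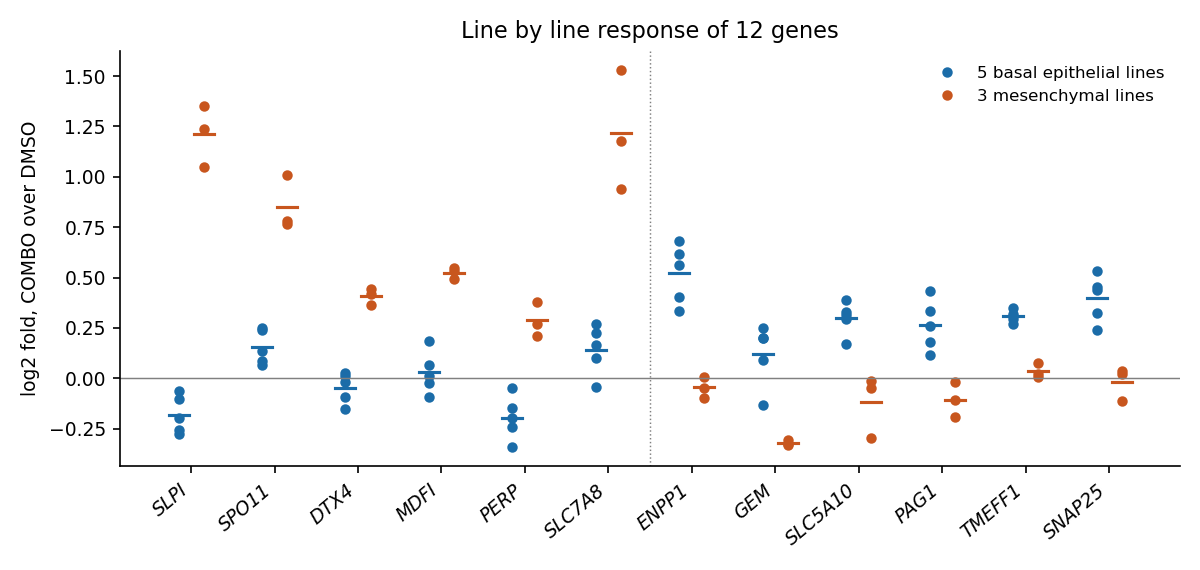
Log2 fold of COMBO over DMSO (vertical axis) for 12 genes whose line folds do not overlap between the classes; each point is 1 line, blue for the 5 basal epithelial and orange for the 3 mesenchymal lines, and bars are the mean over lines. SLPI to SLC7A8, left of the dotted line, have mesenchymal folds above, and ENPP1 to SNAP25 have basal epithelial folds above; SLPI alone passed the test of the difference.

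Among genes of epithelial junctions and the factors that maintain them, most had the lower response in the basal epithelial lines. Like all the lists, this one was chosen with earlier results of these data known. Its counts describe these data and are no independent test. Of 26 measured members, 25 had a difference below 0, as did 47.5% of all genes. The median difference was -0.30, against 0.01 over all 24094 genes. The list's median fold was -0.22, -0.05, -0.14, -0.22 and -0.13 in the basal epithelial lines and 0.12, 0.08 and 0.17 in the mesenchymal lines, without overlap. For housekeeping genes it was -0.25, -0.05, -0.05, -0.12 and -0.10 in the basal epithelial lines and -0.09, -0.21 and -0.17 in the mesenchymal lines. Median folds below 0 in the basal epithelial lines were thus not particular to junction genes. At an unadjusted p under 0.05, 12 members had the higher response in mesenchymal lines, where 4.37% of all genes did, and 0 in basal epithelial lines. Mesenchymal folds lay wholly above at 7 members, beside 2.83% of all genes. None of the 26 passed at an adjusted p under 0.05 in edgeR. In DESeq2 4 did (MARVELD3, DSC2, ESRP1 and OVOL2), all with the higher response in mesenchymal lines, beside 0.391% of genes. Without MDA-MB-231, 1 member, PKP2, passed in edgeR. In fits without 1 line, 8 to 13 members had an unadjusted p under 0.05 and the median lay between -0.33 and -0.19. With DMSO the list's median difference in level, basal epithelial minus mesenchymal, was 1.19 on the log2 scale, with 25 of 26 members above 0. The same DMSO sums enter the responses.

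DSC2, a desmosomal cadherin, had 10.1, 1.89, 1.11, 5.47 and 15.1 CPM with COMBO in the basal epithelial lines, against 13.0, 2.03, 1.33, 8.57 and 16.6 CPM with DMSO. It had 1.18, 2.91 and 1.67 CPM with COMBO in the mesenchymal lines, against 0.560, 0.385 and 0.887 CPM with DMSO. Its signal was low throughout the mesenchymal lines and the gain was largest in SUM-159PT. The difference was -1.88 ± 0.40 (adjusted p = 0.432, edgeR), and -1.29 without SUM-159PT.

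MARVELD3, a tight junction protein, had 22.0, 57.0, 20.7, 27.7 and 19.8 CPM with COMBO in the basal epithelial lines, against 25.7, 58.8, 20.3, 25.3 and 19.97 CPM with DMSO. It had 6.12, 6.36 and 8.37 CPM with COMBO in the mesenchymal lines, against 4.70, 2.91 and 5.70 CPM with DMSO. The classes did not overlap in level under either treatment. ESRP1 had folds of -0.42, -0.21, -0.42, -0.34 and -0.03 in the basal epithelial lines and 0.27, 0.83 and 0.43 in the mesenchymal lines. OVOL1, a repressor of ZEB1 and of the mesenchymal state, had folds of -0.18, 0.05, 0.04, -0.05 and -0.12 in the basal epithelial lines and 0.45, 0.57 and 0.13 in the mesenchymal lines. In DSC2, MARVELD3, ESRP1 and OVOL1 every mesenchymal line thus lay above every basal epithelial line. OVOL2, a relative of OVOL1, had 34.2 to 61.3 CPM with COMBO in the basal epithelial lines, against 37.8 to 63.4 CPM with DMSO. It had 25.1, 23.6 and 17.9 CPM with COMBO in the mesenchymal lines, against 16.2, 5.70 and 12.2 CPM with DMSO, the largest gain being in SUM-159PT. MARVELD3, OVOL1 and OVOL2 were named after their values were seen. DSC2, MARVELD3 and OVOL2 rose in the mesenchymal lines (1.56 ± 0.33, 0.66 ± 0.12 and 1.01 ± 0.22; adjusted p = 0.0465, 0.0404 and 0.0496, edgeR), where 1.47% of all genes rose. Each passed in 1 or 2 of the 8 fits that left out 1 line. CDH1 had folds of -0.16, -0.06, -0.16, -0.27 and -0.13 in the basal epithelial lines and 0.12, -0.18 and 0.23 in the mesenchymal lines, which overlap. EPCAM was below 0 in all 5 basal epithelial lines (-0.74 to -0.05) and in 2 of the 3 mesenchymal lines (-0.20 to 0.05).

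Among mesenchymal genes most had the higher response in the basal epithelial lines. This list too was chosen with earlier results of these data known. Of 26 measured members, 23 had a difference above 0, as did 52.5% of all genes. The median difference was 0.27, and the list's median fold was 0.43, 0.15, 0.19, 0.15 and 0.0048 in the basal epithelial lines and 0.01, -0.16 and -0.02 in the mesenchymal lines. At an unadjusted p under 0.05, 5 members had the higher response in basal epithelial lines (2.56% of all genes did) and 0 in mesenchymal lines. The 5 became 2 without SUM-159PT or BT-549 and 3 without HCC1937. None passed in edgeR or in DESeq2, and none had line folds without overlap. With DMSO the list's median difference in level, basal epithelial minus mesenchymal, was -0.96 on the log2 scale, with 3 of 26 members above 0. The same DMSO sums enter the responses here too. AXL, a receptor kinase of the mesenchymal state, had folds of 0.17, 0.37, 0.23, 0.14 and -0.04 in the basal epithelial lines and 0.00, -0.20 and -0.21 in the mesenchymal lines. FBN1, the matrix protein fibrillin, had 0.64, 0.23, 0.32, 0.22 and -0.09 in the basal epithelial lines and -0.05, -0.21 and -0.06 in the mesenchymal lines. ZEB1 had 0.35, 0.00, 0.11, 0.18 and 0.19 in the basal epithelial lines and 0.11, -0.10 and -0.17 in the mesenchymal lines. The differences were 0.31 ± 0.089, 0.37 ± 0.13 and 0.22 ± 0.087 (adjusted p = 0.596, 0.666 and 0.688, edgeR). VIM differed by 0.19 ± 0.081 (adjusted p = 0.701, edgeR), with folds of -0.08 to 0.20 in the basal epithelial lines and -0.25 to -0.07 in the mesenchymal lines.

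**Figure D3:**
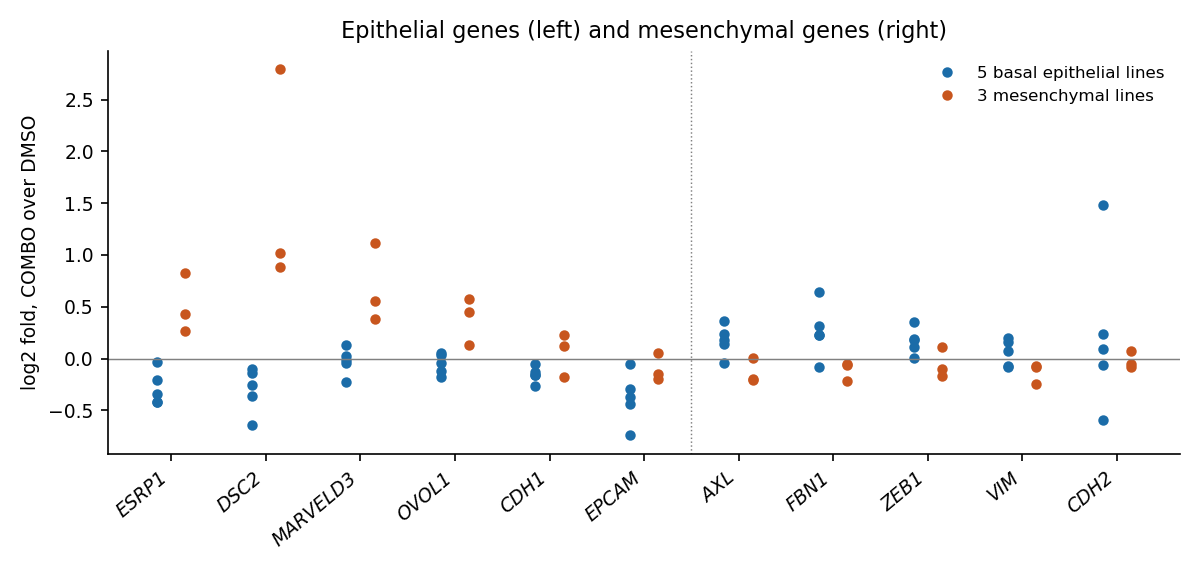
Log2 fold of COMBO over DMSO (vertical axis) for epithelial genes left of the dotted line and mesenchymal genes right of it; each point is 1 line, blue for the 5 basal epithelial and orange for the 3 mesenchymal lines. ESRP1, DSC2, MARVELD3 and OVOL1 have every mesenchymal line above every basal epithelial line, whereas CDH1, EPCAM and the mesenchymal genes overlap.

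Luminal genes had a median difference of -0.16 over 29 measured members, with a median fold of -0.21 to 0.02 in the basal epithelial lines and -0.12 to 0.27 in the mesenchymal lines. SLPI belongs to this list. In all, 4 members had an unadjusted p under 0.05 with the higher response in mesenchymal lines, where 4.37% of all genes did. The 4 became 2 without MDA-MB-468, SUM-149PT or BT-549. FOXA1, the pioneer factor of luminal cells, had folds of -0.19, -0.06, -0.30, -0.08 and -0.02 in the basal epithelial lines and 0.65, -0.07 and 0.40 in the mesenchymal lines, so SUM-159PT overlapped the basal epithelial range. The difference was -0.46 ± 0.14 (adjusted p = 0.605, edgeR). Of 26 measured basal genes, 7 had an unadjusted p under 0.05, all with the higher response in mesenchymal lines (4.37% of all genes), and the median difference was -0.09. The 7 became 3 without HCC1143 (beside 1 with the higher response in basal epithelial lines) or HCC1937, 4 without SUM-149PT or MDA-MB-231, 2 without BT-549 (beside 2 with the higher response in basal epithelial lines), and 2 with total counts as scaling (beside 1). TRIM29, a basal and squamous marker, had 94.2, 52.6, 71.8, 38.5 and 52.6 CPM with COMBO in the basal epithelial lines, against 115, 46.1, 79.1, 42.3 and 57.3 CPM with DMSO. It had 10.2, 18.7 and 6.99 CPM with COMBO in the mesenchymal lines, against 8.23, 12.3 and 4.85 CPM with DMSO. BT-20 was the basal epithelial line that gained, with a log2 fold of 0.19, below the log2 folds of all 3 mesenchymal lines. TRIM29 rose by 0.48 ± 0.097 in the mesenchymal lines (adjusted p = 0.0434, edgeR; past the threshold in 2 of 8 fits without 1 line), and the difference was -0.59 ± 0.12 (adjusted p = 0.432, edgeR; 0.00618 in DESeq2). KRT14, the basal keratin, had folds of -0.54 to -0.08 in the basal epithelial lines and -0.07 to 0.50 in the mesenchymal lines. KRT5, KRT8, KRT18 and TP63, a factor of basal cells, had differences between -0.22 and 0.15, none of which passed (adjusted p from 0.823 to 0.942, edgeR).

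Developmental genes known as PRC2 targets had median folds above 0 in each of the 8 lines. The median response over 57 measured members was 0.37 in the basal epithelial lines and 0.50 in the mesenchymal lines. The median difference was -0.06, and its direction depended on single lines: it was 0.12 without SUM-159PT and 0.03 without BT-20, against -0.20 without MDA-MB-231. With peaks within 1 kb it was 0.0027. Medians by line ran from 0.11 in BT-20 to 0.81 in MDA-MB-468 among the basal epithelial lines and from 0.10 in MDA-MB-231 to 1.03 in SUM-159PT among the mesenchymal lines. The spread within each class was wider than the gap between them. Of the members, 0 rose in the basal epithelial lines, where 0.212% of all genes did, and 3 in the mesenchymal lines, where 1.47% of all genes did: NEUROD2 by 0.55 ± 0.12, LHX2 by 0.71 ± 0.14 and PAX5 by 0.41 ± 0.089 (adjusted p = 0.0461, 0.0428 and 0.0476, edgeR). These 3 rises were not followed through the fits without 1 line. Over all genes, the mesenchymal count of 598 became 11 to 150 in those fits, apart from 3052 without MDA-MB-468. The differences of NEUROD2, LHX2 and PAX5 between the classes did not pass (-0.18, -0.36 and -0.14; adjusted p = 0.801, 0.728 and 0.799). OTX1 and SIX2, homeobox factors of brain and kidney development, had basal epithelial folds wholly above, and HAND1, a factor of heart and trophoblast, had mesenchymal folds wholly above, 2 and 1 of 57 members beside 2.63% and 2.83% of all genes. NEUROD2, LHX2, PAX5 and HAND1 were named after their values were seen. HOX genes had a median difference of -0.11 over 35 members, 26 of them below 0 and 0 with an unadjusted p under 0.05.

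**Figure D4:**
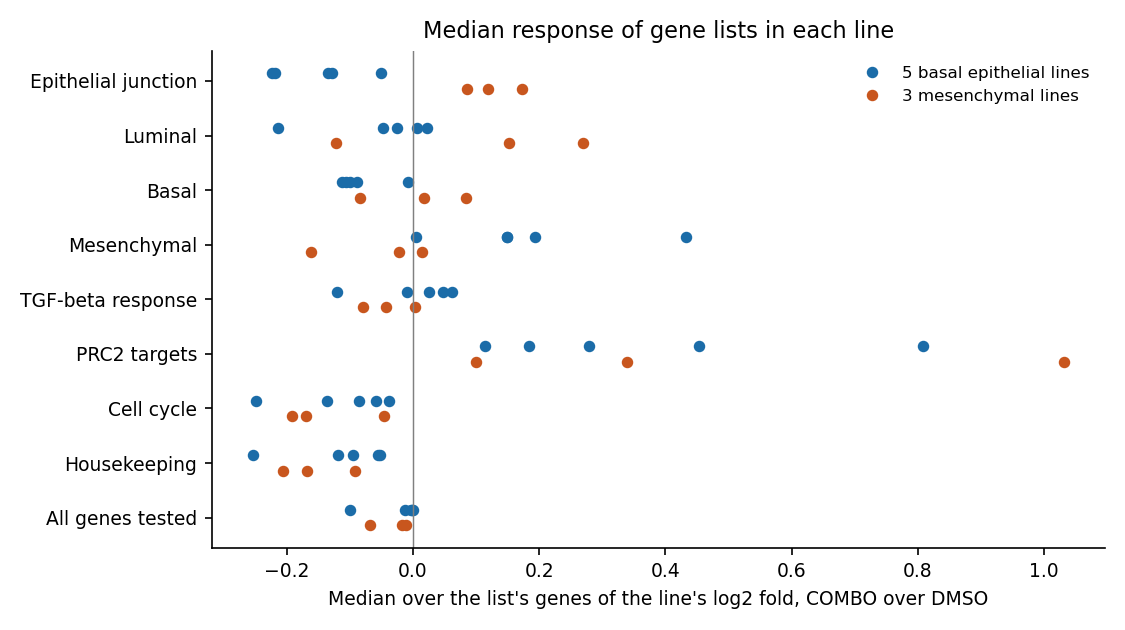
Median over a list's genes of the log2 fold of COMBO over DMSO (horizontal axis), for 8 lists and for all genes tested; each point is 1 line, blue for the 5 basal epithelial and orange for the 3 mesenchymal lines. The classes separate for epithelial junction genes (-0.22 to -0.05 against 0.08 to 0.17) and overlap for luminal, basal and PRC2 target genes. The lists were chosen with earlier results of these data known.

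In the pathway lists no member passed the test of the difference in edgeR. For FOXO targets, which AKT restrains, the median difference was 0.01 over 32 members. PCK1, a gluconeogenic enzyme and FOXO target, had 11.7, 8.45, 7.67, 7.18 and 16.3 CPM with COMBO in the basal epithelial lines, against 6.42, 6.55, 5.59, 6.67 and 11.8 CPM with DMSO. It had 14.6, 43.7 and 13.3 CPM with COMBO in the mesenchymal lines, against 6.85, 14.5 and 6.83 CPM with DMSO. All 8 lines were higher with COMBO, and the 3 mesenchymal lines by more on the log2 scale than any basal epithelial line (difference -0.77 ± 0.19, adjusted p = 0.492, edgeR). PCK1 rose in the mesenchymal lines by 1.22 ± 0.15 (adjusted p = 0.0249, edgeR; not without SUM-149PT, SUM-159PT or BT-549). FOXO1 itself, one of these factors, had folds of -0.05 to 0.02 in the basal epithelial lines and 0.04 to 0.28 in the mesenchymal lines (difference -0.18 ± 0.059, adjusted p = 0.632, edgeR). Among the gp130-STAT3 and involution genes, LIF, a cytokine of that pathway, had folds of -0.40, -0.86, -0.45, -0.97 and -1.42 in the basal epithelial lines and 0.19, -0.20 and -0.06 in the mesenchymal lines (difference -0.83 ± 0.24, adjusted p = 0.605, edgeR). Its response in the basal epithelial lines, -0.85 ± 0.15, did not pass (adjusted p = 0.0532, edgeR). IL6, another cytokine that signals through gp130, had folds of -0.18 to 0.28 in the basal epithelial lines and -0.65 to -0.17 in the mesenchymal lines. PMAIP1, the pro-apoptotic gene NOXA, was below 0 in all 5 basal epithelial lines (-0.18 to -0.07) and above 0 in all 3 mesenchymal lines (0.05 to 0.17), a difference of -0.23 ± 0.050 (adjusted p = 0.432, edgeR). OAS1, an interferon-induced sensor of double-stranded RNA, had folds of -0.32 to 0.01 in the basal epithelial lines and 0.44 to 0.49 in the mesenchymal lines (difference -0.61 ± 0.13, adjusted p = 0.432, edgeR; 0.0120 in DESeq2), and it rose in the mesenchymal lines by 0.47 ± 0.10 (adjusted p = 0.0466, edgeR; past the threshold in 1 of 8 fits without 1 line). CXCL2, a chemokine under NF-kB, ran the other way, with -0.25 to 0.14 in the basal epithelial lines and -0.61 to -0.33 in the mesenchymal lines, where it fell (-0.44 ± 0.073; adjusted p = 0.0390, edgeR; past the threshold in 2 of 8 fits without 1 line). EZH2 and AKT1, the drug targets, differed by 0.07 ± 0.058 and 0.06 ± 0.14 (adjusted p = 0.817 and 0.933, edgeR). A2M, a secreted protease inhibitor, was higher with COMBO in all 8 lines, by 0.41 to 2.70 in the basal epithelial lines and 1.67 to 2.79 in the mesenchymal lines (difference -1.26 ± 0.51, adjusted p = 0.699, edgeR). BATF3, an AP-1 factor of immune cells, rose in the basal epithelial lines by 0.50 ± 0.053 (adjusted p = 0.0221, edgeR; past the threshold in 4 of 8 fits without 1 line), with folds of 0.27 to 0.67 there and 0.20 to 0.36 in the mesenchymal lines. ANKRD1, a target of YAP, rose in both classes, by 0.44 ± 0.049 in the basal epithelial lines and 0.46 ± 0.064 in the mesenchymal lines (adjusted p = 0.0221 and 0.0343, edgeR; past the threshold in 4 and 3 of 8 fits without 1 line), 1 of 10 genes that rose in both; it was named after its values were seen.

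Cell cycle, housekeeping and SREBP genes had negative median responses of similar size in both classes. The medians were -0.12, -0.14 and -0.10 in the basal epithelial lines and -0.13, -0.16 and -0.12 in the mesenchymal lines, over 28, 13 and 21 members. The median differences were 0.01, 0.05 and 0.0015, and 0 to 1 members had an unadjusted p under 0.05. The median over genes of the difference was 0.01 to 0.05 for the TGF-beta, AP-1 and ERK feedback, YAP and TEAD, BCL2 family, interferon, NF-kB and involution lists. For the interferon list the median responses ran the other way, at -0.09 in the basal epithelial lines and 0.01 in the mesenchymal lines. In the AP-1 and ERK feedback list 24 of 28 members had a difference above 0, as did 52.5% of all genes, and 1 had an unadjusted p under 0.05. The receptor kinase list had a median difference of -0.05, and FLT1, a VEGF receptor and also an endothelial marker, had 11.1, 12.1, 14.3, 19.8 and 17.1 CPM with COMBO in the basal epithelial lines, against 9.35, 10.7, 10.2, 14.2 and 10.4 CPM with DMSO. FLT1 had 6.86, 52.0 and 12.7 CPM with COMBO in the mesenchymal lines, against 3.43, 14.4 and 5.68 CPM with DMSO. It rose in the mesenchymal lines by 1.36 ± 0.16 (adjusted p = 0.0194, edgeR; not without HCC1937, SUM-159PT or BT-549), and the difference was -0.94 ± 0.20 (adjusted p = 0.432, edgeR; 0.0109 in DESeq2). For cell types the cultures should not hold, the summed level of 16 endothelial markers was 195 to 225 CPM with COMBO and 168 to 212 CPM with DMSO in the basal epithelial lines, and 212 to 231.4 CPM with COMBO and 157 to 214 CPM with DMSO in the mesenchymal lines. That of 16 immune markers was 157 to 211 CPM with COMBO and 156 to 214 CPM with DMSO in the basal epithelial lines, and 191 to 219 CPM with COMBO and 182 to 204 CPM with DMSO in the mesenchymal lines. The 3 endothelial genes PECAM1, CDH5 and VWF stood at 3.37 to 45.0 CPM with DMSO over the 8 lines, so none of these 3 genes was at 0 as a sum of its peaks. The median difference was -0.20 over the endothelial markers, with 13 of 16 below 0, and -0.16 over the immune markers, with 11 of 16 below 0, in the direction of the junction and luminal lists (-0.30 and -0.16). The part of other cell types in the results was not tested.

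At single peaks the test of the difference called 4 of 637000 (0.000628%), all with the higher response in mesenchymal lines. An unadjusted p under 0.05 was found at 31479 of the 637000 peaks, no more than that threshold gives where no peak differs. Positions follow the authors' table (hg38). The largest lay at chr6:150720625-150721511, in a 5′ UTR and assigned to PLEKHG1, 120742 bp from the listed start. It had 5.65, 4.74, 6.23, 5.33 and 14.5 CPM with COMBO in the basal epithelial lines, against 8.53, 4.69, 7.83, 6.70 and 15.1 CPM with DMSO. It had 1.23, 8.32 and 4.11 CPM with COMBO in the mesenchymal lines, against 0.191, 1.28 and 0.762 CPM with DMSO. The mesenchymal lines gained at a site that was open in the basal epithelial lines under both treatments. The difference was -2.85 ± 0.24 (adjusted p = 4.98e-05, edgeR). The promoter peak of SLPI at chr20:45253298-45255337 differed by -1.40 ± 0.15 (adjusted p = 0.00225, edgeR), with folds of -0.55 to -0.08 in the basal epithelial lines and 1.08 to 1.23 in the mesenchymal lines. Its counts are part of the sum for the SLPI gene, so the gene and the peak are not separate results. An intergenic peak at chr13:26837507-26838838, assigned to GPR12, differed by -2.20 ± 0.26 (adjusted p = 0.00806, edgeR). An intronic peak at chr16:54647147-54648378, assigned to LINC02183, differed by -2.001 ± 0.26 (adjusted p = 0.0168, edgeR). With DMSO the peak assigned to GPR12 stood at 2.33 to 17.5 CPM in the basal epithelial lines, against 0.238 to 0.821 CPM in the mesenchymal lines. That assigned to LINC02183 stood at 0.532 to 25.2 CPM in the basal epithelial lines, against 0.143 to 4.61 CPM in the mesenchymal lines, and only the first of this pair was without overlap. These calls depended on the lines: the peak assigned to GPR12 was not called without BT-20, HCC1937 or SUM-159PT (adjusted p = 0.0901, 0.0902 and 0.252), and that assigned to LINC02183 was called without MDA-MB-468, MDA-MB-231 or BT-549 only.

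Peaks with the higher response in basal epithelial lines did not pass. The promoter peak of PTN, the growth factor pleiotrophin, at chr7:137342782-137344028 had 6.37, 2.77, 8.42, 2.34 and 3.42 CPM with COMBO in the basal epithelial lines, against 1.46, 0.996, 5.47, 0.776 and 1.42 CPM with DMSO. It had 9.17, 10.7 and 9.998 CPM with COMBO in the mesenchymal lines, against 9.87, 10.5 and 10.8 CPM with DMSO. Every basal epithelial line gained, and the mesenchymal lines stayed at their higher level. It rose in the basal epithelial lines (1.39; adjusted p = 0.00908, edgeR), and the difference was 1.46 ± 0.26 (adjusted p = 0.396, edgeR). A peak in an intron of DGKI, a diacylglycerol kinase, on the same chromosome differed by 1.21 ± 0.22, and one in an exon of DPF3, a subunit of BAF chromatin remodelling complexes, by 1.09 ± 0.22 (adjusted p = 0.467 and 0.713, edgeR).

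Within a class, 51 genes rose (0.212%) and 69 fell (0.286%) in the basal epithelial lines, and 353 rose (1.47%) and 245 fell (1.02%) in the mesenchymal lines, at an adjusted p under 0.05 in edgeR. Scaled by total counts, 762 genes rose and 2559 fell in the mesenchymal lines, and without MDA-MB-468 1383 rose and 1669 fell there, so falls then outnumbered rises. Without SUM-159PT, 423 genes rose and 302 fell in the basal epithelial lines. These counts do not compare the classes, since they rest on 5 and 3 lines and moved widely with single lines. The basal epithelial count of 120 became 0 without HCC1143, HCC1937 or SUM-149PT, 3 without BT-549, 8 without MDA-MB-231, 18 without MDA-MB-468, 34 without BT-20 and 725 without SUM-159PT. The mesenchymal count of 598 became 3052 without MDA-MB-468 and 11 to 150 without any other single line. Of single peaks, 840 rose (0.132%) and 254 fell (0.0399%) in the basal epithelial lines, and 669 rose (0.105%) and 48 fell (0.00754%) in the mesenchymal lines. Promoter peaks made up 9.52% of the risen and 11.4% of the fallen peaks in the basal epithelial lines, 9.87% of the risen and 14.6% of the fallen in the mesenchymal lines, and 6.86% of all peaks tested. Distal intergenic peaks made up 31.5% of the risen and 15.7% of the fallen peaks in the basal epithelial lines, 33.9% of the risen and 12.5% of the fallen in the mesenchymal lines, and 31.6% of all.

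The share of counts in peaks within 1000 bp of a start changed by -2.84, 0.283, -0.731, -0.391 and -0.619 percentage points with COMBO in the basal epithelial lines and by -1.73, -2.63 and -2.14 points in the mesenchymal lines. The 3 mesenchymal lines lost more than 4 of the 5 basal epithelial lines, and MDA-MB-468 lost the most of the 8. Means were -0.859 ± 1.17 points in the basal epithelial lines (SD, n = 5) and -2.16 ± 0.451 points in the mesenchymal lines (SD, n = 3), a difference of 1.31 points that did not pass (two-sided exact permutation p = 0.143, where the smallest possible is 0.0357). The size of the response, as the median absolute log2 fold over genes, was 0.240, 0.127, 0.164, 0.137 and 0.137 in the basal epithelial lines and 0.142, 0.239 and 0.174 in the mesenchymal lines. MDA-MB-468 and SUM-159PT, 1 line of each class, stood apart with almost equal values. The means did not differ beyond the spread of lines (0.161 ± 0.0463 against 0.185 ± 0.0495; two-sided exact permutation p = 0.357), and the difference of -0.0239 was 0.003222 without SUM-159PT.

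**Figure D5:**
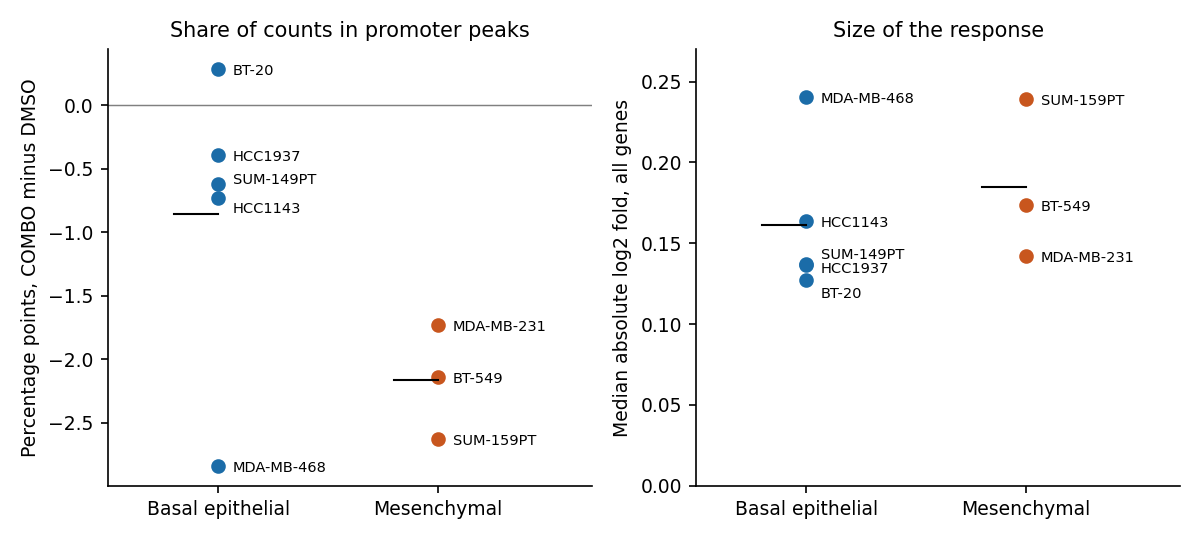
Left, change in the share of counts in promoter peaks with COMBO (percentage points, COMBO minus DMSO); right, median absolute log2 fold over all genes tested. Each point is 1 line and black bars are means of the class; MDA-MB-468 lies among or beyond the mesenchymal lines in both panels.

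The single agents were given in 4 of the 8 lines, MDA-MB-468 and SUM-149PT of the basal epithelial and MDA-MB-231 and SUM-159PT of the mesenchymal class. Each agent was compared with the same DMSO sums as the combination, and tazemetostat was given for longer than ipatasertib. All treatments of these 4 lines entered 1 fit with the line as block. Its spread thus pools treatments of the same line and does not rest on separate lines alone. With tazemetostat alone SLPI had folds of -0.13 and -0.08 in the basal epithelial lines and 1.14 and 1.30 in the mesenchymal lines. With ipatasertib alone its folds were -0.16 and -0.13 in the basal epithelial lines and 0.29 and 0.12 in the mesenchymal lines. The tazemetostat folds in these 4 lines lay close to those of the combination, -0.26 and -0.09 in the basal epithelial lines and 1.24 and 1.35 in the mesenchymal lines. The class difference was -1.35 ± 0.11 with tazemetostat (adjusted p = 0.0136, edgeR), -0.34 ± 0.11 with ipatasertib (adjusted p = 1, edgeR) and -1.49 ± 0.11 with the combination (adjusted p = 0.00559, edgeR). SLPI was the only gene of 24125 called for tazemetostat (0.00415%), and 0 were called for ipatasertib. An unadjusted p under 0.05 was found at 1254 genes for tazemetostat, close to what that threshold gives where no gene differs. For ipatasertib the count was 191, which is below that level. With tazemetostat and DMSO alone in the fit, 0 genes were called for tazemetostat, so SLPI did not pass there. The tazemetostat count was 396 without SUM-149PT, 226 without MDA-MB-231 and 0 without MDA-MB-468 or SUM-159PT, fits in which 1 class has a lone line assumed to vary like the others. MDFI had tazemetostat folds of 0.01 and -0.01 in the basal epithelial lines and 0.46 and 0.53 in the mesenchymal lines, and ipatasertib folds of 0.08 and 0.03 in the basal epithelial lines and 0.03 and 0.06 in the mesenchymal lines. SPO11, DTX4, DSC2 and MARVELD3 likewise had class differences of -2.52 to -0.46 with tazemetostat and -0.44 to 0.08 with ipatasertib. In other genes the difference with ipatasertib was as large or larger: OAS1 differed by -0.28 with tazemetostat and -0.46 with ipatasertib, CXCL2 by 0.15 and 0.22, and LIF by -0.39 and -0.43 (adjusted p from 0.998 to 1, edgeR). ENPP1 had a difference of 0.45 ± 0.10 with tazemetostat, 0.24 ± 0.10 with ipatasertib and 0.64 ± 0.10 with the combination (adjusted p = 0.584, 1 and 0.308, edgeR). Whether the agents differ from each other in these class differences was not tested.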

How the data were processed

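ATAC-seq counts from 78 libraries of 9 lines were read, and 48 of them were used here. The deposited table holds raw counts per peak over 1 shared set of 861439 peaks, made with MACS2 and featureCounts on hg38 per the submitters' processing notes. The sources used here give no versions, aligner or duplicate removal. The deposited annotation gives each peak 1 gene and its distance to the transcription start in bp. Libraries had 12292571 to 21459284 counts in peaks. The 6 samples of HCC1806 were not analysed here.

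Replicate counts were summed per line and treatment, since replicates differed by less than sampling noise. A gene is the sum of its peaks within 10 kb, and 24094 genes passed edgeR's filterByExpr (minimum count 10). edgeR 4.0.16 quasi-likelihood fits (R 4.3.3, TMM, robust) had the line as block and a COMBO term for each class, and their contrast is the difference. P-values were adjusted over all features by Benjamini-Hochberg, with 0.05 as threshold. The same fits were made for peaks, for baseline levels and for the single agents. Line folds use a prior count of 2. Standard errors are the fold divided by the root of F. The biological coefficient of variation was 13.3% for genes. Scripts were tested on simulated data. Values of 1 line each were compared by exact permutation (scipy 1.17.1).

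Named genes were the 12 of largest difference per direction among called protein-coding genes averaging 2 or more in log2 CPM with no overlap of line folds, filled to 6 by p. Up to 4 of each list by p and a panel of 24 were added, and peaks followed the same rule, filled to 3. Genes named otherwise are said to be. The members and the 21 lists were chosen with earlier results of these data known. Of 25871 gene IDs, 25573 were in RefSeq's table (GRCh38.p14). Promoters are RefSeq's. Alternatives were other normalizations, DESeq2 1.42.0, filters, windows, lines and replicates left out, HCC1395 in either class, and single libraries with and without a replicate block.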

Additional observations from a re-analysis of the deposited data

Results flagged for a closer look

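In the basal epithelial lines MDA-MB-468 stood apart for PGR, the progesterone receptor, with a log2 fold of 1.467 against 0.46 to 0.63 in the other 4 lines. It was 1 of 73 groups of lines checked for a sample far from the rest, and chance gives about 1 in 20. A difference between the classes that passed its own test was found for SLPI (-1.419) and for 4 peaks, those assigned to PLEKHG1 (-2.848), GPR12 (-2.204), LINC02183 (-2.001) and SLPI (-1.397), all as log2 response in basal epithelial minus mesenchymal lines in edgeR. The counts of the SLPI peak are part of the sum for the SLPI gene.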

How the results depend on the processing

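The count of 1 gene that differed between the classes was 5 with abundance-trended offsets, 2 with peaks within 1 kb, 0 within 50 kb, 3 and 0 with HCC1395 among the basal epithelial or mesenchymal lines, 79 in DESeq2, and 1 to 6 without 1 line or 1 replicate. SLPI passed in 21 of 23 alternatives, from -1.52 to -1.10. The exceptions were the 50 kb window (-1.10) and HCC1395 among the mesenchymal lines (-1.15). The basal epithelial count of 120 genes was 198 with size factors in edgeR, 57 with total counts, 644 with trended offsets, 981 and 0 in the 1 kb and 50 kb windows, 1822 and 441 with HCC1395 in either class, 1625 in DESeq2, and 0 to 725 without a line or replicate (56 and 257 without replicate 1 or 3). The mesenchymal count of 598 was 3321 with total counts, 149 within 50 kb, 1515 and 1621 with HCC1395, 1843 in DESeq2, and 11 to 3052 without a line or replicate (237 without replicate 2). The 4 differing peaks were 2 with a minimum count of 30, 8 with trended offsets, 0 with HCC1395 among the mesenchymal lines, and 2 to 12 without a line. The 1094 basal epithelial peaks were 2091 with no filter, 0 with a minimum of 30, 214 with total counts, 3716 with HCC1395 among them, and 1 to 4284 without a line. The 717 mesenchymal peaks were 1292 with no filter, 46 with a minimum of 30, 2063 with HCC1395 among them, and 8 to 9677 without a line. The 58 genes that differed in DMSO were 1 to 58 without a line. The tazemetostat count of 1 was 0 with the agent and DMSO alone in the fit and 0 to 396 without a line. The difference in response size ranged from -0.0453 to 0.003222 without a line. Single libraries, which treat replicates below sampling noise as independent, called 6974, 13313 and 14039 genes for the difference, the basal epithelial and the mesenchymal response. With a replicate block they called 2091, 10087 and 10964 genes and 12352, 89996 and 76829 peaks. The numbers did not pair the samples: over 24 numbered pairs correlations ran from -0.105 to 0.0532, and 6 were best with their own number. Over 111 named genes and 7 peaks, 16 of 2657 alternative values no longer passed and 170 newly passed in the same direction. A further 2362 kept their side of the threshold, those not called lying within 1 standard error of the main value. The other 109 moved further without being called. In DESeq2, values without an adjusted p were judged by direction alone. Reversals were counted only for values called in the main or the alternative fit, and 0 were found. Uncalled values may have changed sign. The causes were not tested. With 3 to 5 lines in a class, differences smaller than the spread between lines were not detectable.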
